A study of Mus musculus with 6 samples.

Results

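The immediate early genes examined here were 10 genes chosen by name, *Fos*, *Fosb*, *Jun*, *Junb*, *Egr1*, *Egr2*, *Nr4a1*, *Atf3*, *Ier2* and *Btg2*, out of 55573 genes listed in RNA-seq of inguinal white adipose tissue (iWAT), a subcutaneous fat depot. The 10 genes were picked with earlier results of these data known, and no measured value entered the rule. Libraries came from 3 mutant and 3 Wt male C57BL/6NTac mice, 3 months old, on regular chow and without treatment, with 1 library per mouse. The mutant mice carry the K283Q/K288R substitution pair in the thyroid hormone receptor THRA, which removes a site for conjugation of the small modifier SUMO, in every tissue and on both alleles. The Wt mice were bred in house on the same strain and carry no engineered allele, and are not called littermates of the mutant mice in the sources used here.

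Immediate early genes are the first genes switched on when a cell meets a growth factor, a hormone, nervous input or stress. Their promoters are kept ready and are driven by transcription factors that are already present, chiefly serum response factor with its partners and the cyclic AMP response element binding protein (CREB), so that no new protein has to be made first. Most of their products are short-lived transcription factors, and their mRNAs decay within a short time of the stimulus. In white fat they respond to sympathetic input, insulin and mitogens, and in dissected tissue they can also respond to handling before the RNA is preserved.

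Of the 10 genes, *Fos*, *Fosb* and *Egr1* were higher in mutant fat, by ratios of the genotype means of 1.94, 2.54 and 2.11. The remaining 7 did not pass the test, and among these *Junb* had the largest difference in the opposite direction. All 10 genes passed the filter on low values that left 16868 genes for the test (limma with its trend option on log2(value + 0.5), Benjamini-Hochberg adjustment over all 16868 genes, FDR 0.05). Values are normalized CPM, reads scaled to a common library size, and every fold change is a difference of mutant minus Wt on the log2(value + 0.5) scale, which understates changes of low values. Of all genes tested, 8.11% passed in either direction, 5.5% higher and 2.61% lower in mutant mice, against 3 of the 10 immediate early genes, 3 higher and 0 lower. The lower share is the less stable one: over all genes the 928 higher and 440 lower calls became 1019 and 265 with scaling by library size only, and 875 and 138 with a correction for GC content. The groups did not overlap, with the mutant mice above, for 4 of the 10 genes and for 14.9% of all genes. With the mutant mice below this held for 0 of the 10 and for 15.7% of all genes. The median fold change of the 10 genes was 0.01, beside -0.05 over all genes tested.

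Promoters are where early genes receive their signals. Promoter sequences of RefSeq, 250 bases before to 50 bases after the transcription start on GRCm38.p6, were matched for 8 of the 10 genes, all but *Egr1* and *Ier2*. The table gives 5 promoters for *Egr2* and 1 for each of the other 7, and a gene is counted below when any of its promoters holds the letters. Those of *Fos* and *Fosb* are shown because these genes passed the test, and that of *Junb* because it belongs to the same dimer family and lay lower in mutant mice. They span chr12:85473640-85473939 on the plus strand, chr7:19309996-19310295 on the minus strand and chr8:84978699-84978998 on the minus strand, each read 5′ to 3′ along the gene, with the letters TGACG in capitals.
Fos: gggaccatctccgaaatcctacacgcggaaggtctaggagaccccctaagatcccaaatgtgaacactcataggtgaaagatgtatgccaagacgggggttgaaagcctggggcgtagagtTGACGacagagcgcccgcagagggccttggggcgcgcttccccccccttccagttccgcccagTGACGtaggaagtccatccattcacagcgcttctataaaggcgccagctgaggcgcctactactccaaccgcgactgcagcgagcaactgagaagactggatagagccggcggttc
Fosb: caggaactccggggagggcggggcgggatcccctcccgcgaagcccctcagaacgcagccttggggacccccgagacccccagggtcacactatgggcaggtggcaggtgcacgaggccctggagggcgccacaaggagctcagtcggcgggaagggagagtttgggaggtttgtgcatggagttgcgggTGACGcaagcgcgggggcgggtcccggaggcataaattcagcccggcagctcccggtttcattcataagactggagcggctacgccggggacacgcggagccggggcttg
Junb: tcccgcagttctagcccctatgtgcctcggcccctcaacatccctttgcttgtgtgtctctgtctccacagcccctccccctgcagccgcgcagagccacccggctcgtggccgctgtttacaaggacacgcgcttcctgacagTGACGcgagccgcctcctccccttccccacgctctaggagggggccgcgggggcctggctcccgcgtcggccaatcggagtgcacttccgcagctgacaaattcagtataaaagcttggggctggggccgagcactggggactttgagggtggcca
TGACG is the short form of the site that CREB and its relatives recognise, and was searched on both strands with no mismatch. It was present in 7 of the 8 genes, *Fos*, *Fosb*, *Junb*, *Egr2*, *Nr4a1*, *Atf3* and *Btg2*, and in 23% of the 27025 genes of the table. Counted by promoter, 9 of the 12 promoters of these genes held it, beside 20.8% of all 32851 promoters. In *Fos* its first bases lie at -129 and -66, in *Fosb* at -60 and in *Junb* at -106, counted from the start as position 0. Genes that passed the test and genes that did not both held these letters. The full palindrome TGACGTCA, which contains TGACG, was found in *Btg2* alone among the 8 and in 2.03% of all genes (1.79% of promoters). The CArG box, the core that serum response factor recognises, was found in *Egr2* alone, in 4 of its 5 promoters, which overlap in part, and in 1.81% of all genes (1.63% of promoters). TATAAA was found in *Fos* and *Junb* and in 15.7% of all genes (13.6% of promoters). The AP-1 site TGANTCA was in 0 of the 8 and in 8.97% of all genes (7.81% of promoters), and the EGR site GCGTGGGCG was in 0 of the 8 and in 0.707% of all genes (0.612% of promoters). The DR4 repeat recognised by thyroid hormone receptors was in 0 of the 8 and in 0.0148% of all genes (0.0152% of promoters). A match is a match of letters in this window and not a measured binding site. Sequence outside the window, and the promoters of *Egr1* and *Ier2*, were not searched, so a gene without a match may hold the site elsewhere.

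The libraries held 19607423 to 24228381 reads on genes, and 3 reads corresponded to 0.126 to 0.157 normalized CPM. *Thra* was at 147, 128 and 117 in Wt against 170, 140 and 137 in mutant mice (fold change 0.19, adjusted p = 0.404, limma), and RNA level does not check the substitutions. *Adipoq*, the adipocyte hormone adiponectin, was at 1557 to 2219 in Wt and 1332 to 2141 in mutant mice. Other cells were present too. The summed level of 8 T cell markers was 165, 453 and 642 in Wt mice 1, 2 and 3, against 8.80, 264 and 337 in the mutants in the same order. For 8 B cell markers it was 546, 1119 and 1210 in Wt and 4.77, 676 and 1050 in mutant mice. Mutant mouse 1 thus stood apart, with lymphocyte markers at a small part of the level of any other library. Inguinal fat surrounds a lymph node, and whether the node was removed is not given in the sources used here. In RNA of whole tissue, fewer cells of a type and less RNA per cell cannot be told apart.

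**Figure D1:**
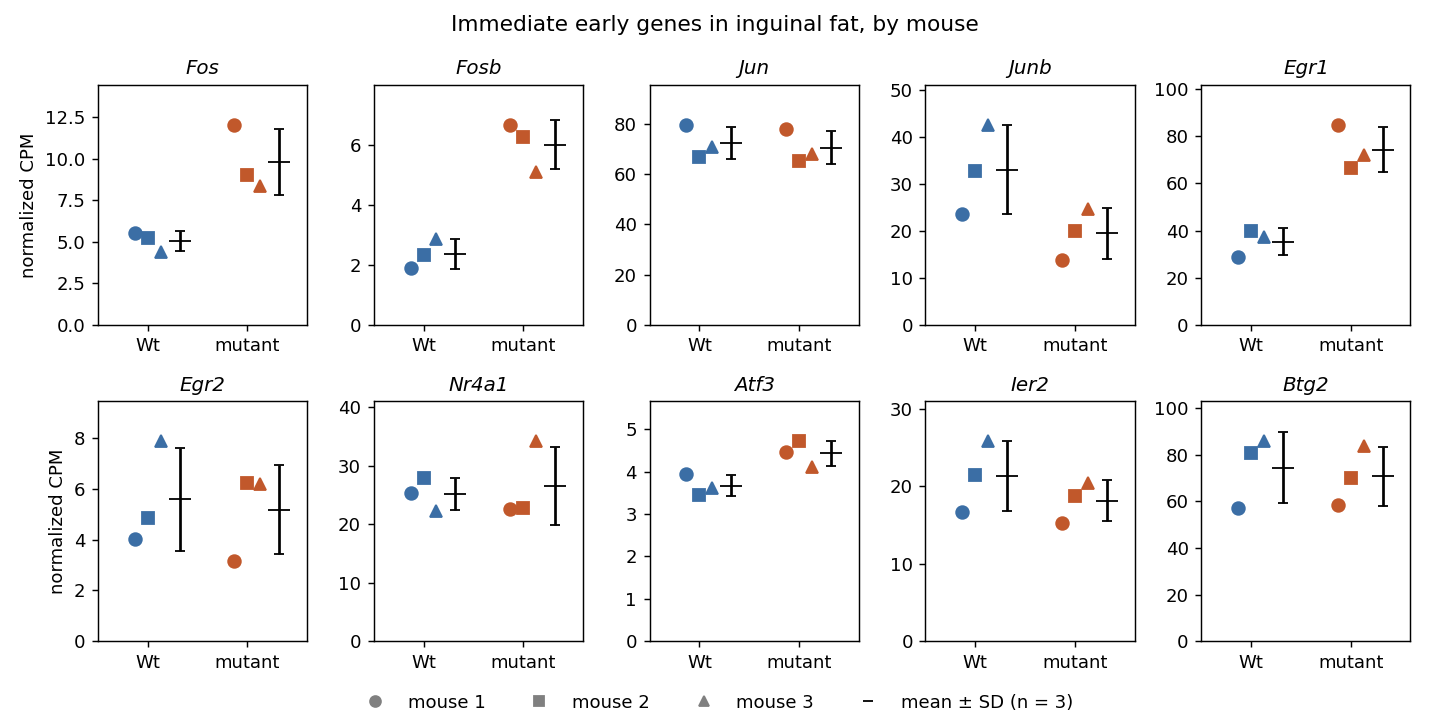
Normalized CPM (linear axes from 0, one scale per gene) of the 10 immediate early genes in each mouse, with symbols for mouse 1, 2 and 3 of each genotype and bars for the mean ± SD (n = 3). For *Fos*, *Fosb*, *Egr1* and *Atf3* every mutant mouse lies above every Wt mouse, and for the other 6 genes the genotypes overlap.

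AP-1 is a dimer of a FOS protein with a JUN protein, or of JUN proteins with each other, and 4 of the 10 genes encode its subunits. *Fos* (ENSMUSG00000021250, chromosome 12, 85473890 to 85477273, plus strand, GENCODE M21 on GRCm38), whose product needs a JUN partner to bind DNA, was at 5.53, 5.25 and 4.38 in Wt mice 1, 2 and 3, against 12.1, 9.02 and 8.38 in mutant mice 1, 2 and 3. Every mutant mouse was above every Wt mouse, with means of 5.05 ± 0.603 (SD, n = 3) and 9.82 ± 1.96 (SD, n = 3). The fold change was 0.88 (95% confidence interval 0.46 to 1.31, adjusted p = 0.0331, limma). These values rest on 104 to 132 reads in Wt and 179 to 230 reads in mutant mice. The call for *Fos* needed all 6 mice: with any 1 mouse left out the fold change was 0.73 to 0.98, but the adjusted p was 0.0559 to 0.113.

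*Fosb* (ENSMUSG00000003545, chromosome 7, 19302696 to 19310051, minus strand) encodes a relative of FOS whose shortened, long-lived variant accumulates with repeated stimulation. It was at 1.89, 2.33 and 2.86 in Wt mice 1, 2 and 3, against 6.66, 6.24 and 5.10 in mutant mice 1, 2 and 3. The lowest mutant mouse lay clearly above the highest Wt mouse. Its fold change, 1.19 (95% confidence interval 0.75 to 1.63, adjusted p = 0.0137, limma), had the largest estimate of the 10 genes, although *Fosb* had the lowest level per length, with 45 to 68 reads in Wt and 109 to 139 reads in mutant mice. Without Wt mouse 2 or mutant mouse 2 the adjusted p was 0.0662 and 0.0704. The values per gene do not separate the full-length from the shortened variant.

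*Jun* (ENSMUSG00000052684, chromosome 4, 95049034 to 95052222, minus strand), the founding JUN subunit, was at 79.7, 67.1 and 70.8 in Wt against 78.2, 65.4 and 68.2 in mutant mice. The groups overlapped along their whole range. The fold change of -0.04 had a 95% confidence interval of -0.29 to 0.21 (adjusted p = 0.840, limma), which leaves out a change of the size seen for *Fos*. *Jun* shares 232 exonic bases with *Junos* on the opposite strand. *Junos* was low, at 1.63, 1.75 and 1.26 in Wt and 3.77, 2.87 and 3.04 in mutant mice (fold change 0.86, adjusted p = 0.0338, limma).

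*Junb* (ENSMUSG00000052837, chromosome 8, 84974484 to 84978718, minus strand) encodes a JUN subunit that is a weaker activator than JUN and often opposes it. It was at 23.6, 32.7 and 42.5 in Wt mice 1, 2 and 3, against 13.8, 19.9 and 24.7 in mutant mice 1, 2 and 3. The highest mutant mouse passed the lowest Wt mouse, so the groups overlapped. The fold change of -0.74 had a wide 95% confidence interval, -1.41 to -0.08, and did not pass the FDR (unadjusted p = 0.0338, adjusted p = 0.167, limma). An exact two-sided permutation test of the 3 against 3 mice gave 0.2, where the smallest p the design allows is 0.1. A correction for GC content brought the fold change of *Junb* to -0.48 (adjusted p = 0.388, limma), its transcript having a GC content of 62.6%. *Junb* shares 173 exonic bases with *Prdx2* on the opposite strand, which was at 66.5 to 81.2 in Wt and 64.4 to 86.3 in mutant mice.

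**Figure D2:**
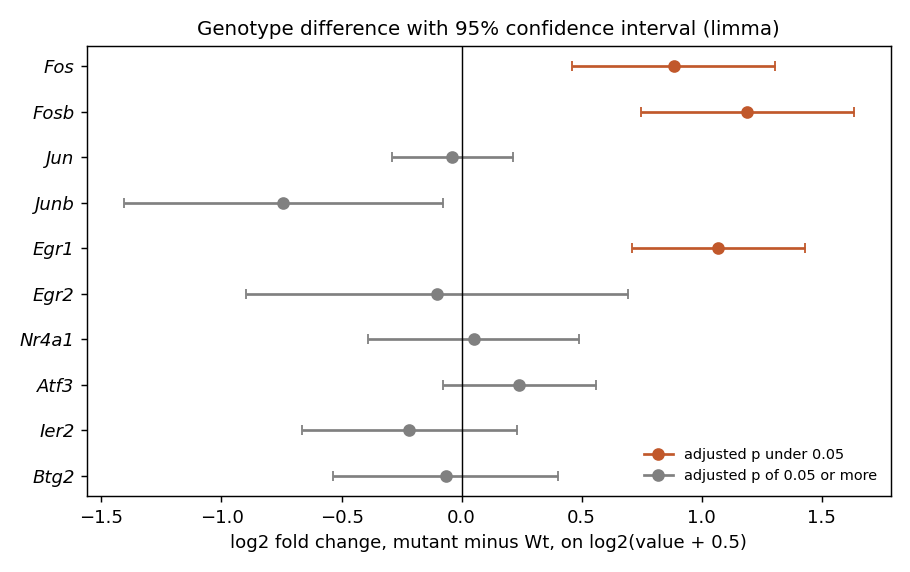
Fold change of each immediate early gene (mutant minus Wt on the log2(value + 0.5) scale, points) with its 95% confidence interval (bars) from limma on 3 against 3 mice. The intervals of *Fos*, *Fosb* and *Egr1*, the 3 genes with an adjusted p under 0.05 (orange), lie above 0, that of *Junb* lies just below 0 without passing the FDR, and the other 6 include 0.

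The early growth response (EGR) proteins are zinc finger factors that bind GC-rich sites. *Egr1* (ENSMUSG00000038418, chromosome 18, 34859823 to 34864984, plus strand), a target of mitogen and insulin signalling, was at 28.9, 39.8 and 37.3 in Wt mice 1, 2 and 3, against 84.9, 66.4 and 72.0 in mutant mice 1, 2 and 3. The genotypes were far apart, with means of 35.3 ± 5.72 (SD, n = 3) and 74.4 ± 9.50 (SD, n = 3). The fold change was 1.07 (95% confidence interval 0.71 to 1.43, adjusted p = 0.00974, limma), with 689 to 886 reads in Wt and 1479 to 1620 reads in mutant mice. *Egr1* passed the FDR with each mouse left out in turn (adjusted p of 0.0161 to 0.0386). *Egr1* and *Fosb* are among the molecules that the study itself picked from these same libraries, so their calls are not independent evidence. In GENCODE M21, *Fos*, *Fosb* and *Egr1* share no exonic bases with another gene.

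*Egr2* (ENSMUSG00000037868, chromosome 10, 67535475 to 67542188, plus strand), known for its role in myelin-forming cells and in early adipocyte differentiation, was at 4.02, 4.86 and 7.87 in Wt mice 1, 2 and 3, against 3.14, 6.24 and 6.18 in mutant mice 1, 2 and 3. The spread within each genotype was wide and the groups overlapped. The fold change of -0.10 had a 95% confidence interval of -0.90 to 0.69 (adjusted p = 0.865, limma), which takes in changes in either direction nearly as large as that of *Fos*.

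*Nr4a1* (ENSMUSG00000023034, chromosome 15, 101254269 to 101274795, plus strand), an orphan nuclear receptor of the NUR77 family induced by cyclic AMP, was at 25.4, 27.9 and 22.3 in Wt against 22.6, 22.8 and 34.2 in mutant mice. Mutant mouse 3 was the highest of the 6, and the other mutant mice lay within the Wt range. Its fold change was 0.05 (95% confidence interval -0.39 to 0.49, adjusted p = 0.881, limma).

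*Atf3* (ENSMUSG00000026628, chromosome 1, 191170296 to 191218039, minus strand), a factor of the ATF/CREB family induced by many stresses, was at 3.94, 3.45 and 3.62 in Wt against 4.45, 4.71 and 4.12 in mutant mice. Each mutant mouse was above each Wt mouse, but by little. The fold change of 0.24 (95% confidence interval -0.08 to 0.56, adjusted p = 0.319, limma) did not pass the FDR, and the exact two-sided permutation p was 0.1, the smallest possible. *Fos*, *Fosb* and *Egr1* had the same permutation p of 0.1, so this permutation test does not set them apart from *Atf3*. *Atf3* had the smallest spread of the 10 genes within a genotype, a standard deviation of 0.09 on the log2 scale beside a median of 0.24 over the 10 genes and 0.195 over all genes tested.

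*Ier2* (ENSMUSG00000053560, chromosome 8, 84661331 to 84662852, minus strand), a small nuclear protein, was at 16.7, 21.5 and 25.8 in Wt mice 1, 2 and 3, against 15.2, 18.7 and 20.4 in mutant mice 1, 2 and 3. *Btg2* (ENSMUSG00000020423, chromosome 1, 134075170 to 134079120, minus strand), an antiproliferative gene that binds the mRNA deadenylase complex and is also a target of p53, was at 57.0, 80.5 and 85.6 in Wt and at 58.4, 70.0 and 83.7 in mutant mice. In both genes the genotypes overlapped. The fold changes were -0.22 (95% confidence interval -0.67 to 0.23, adjusted p = 0.498, limma) for *Ier2* and -0.07 (95% confidence interval -0.53 to 0.40, adjusted p = 0.853, limma) for *Btg2*.

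The 10 genes differed widely in level. Per kilobase of exon, the Wt means of normalized CPM ran from *Btg2* at 27.1 through *Jun* at 22.7, *Junb* at 14.3, *Ier2* at 14.0, *Egr1* at 7.87, *Nr4a1* at 7.18, *Fos* at 2.15, *Atf3* at 1.70 and *Egr2* at 1.64 to *Fosb* at 0.378. The neighbours *Btg2* and *Jun*, *Junb* and *Ier2*, *Egr1* and *Nr4a1*, and *Atf3* and *Egr2* overlapped between mice, and the other neighbours did not. In mutant mice *Egr1*, at 16.6, moved from the fifth to the third place, and *Junb*, at 8.46, moved from the third to the fifth. The other 8 genes kept their places, with *Btg2* at 25.8 and *Fosb* at 0.961 at the ends of the order. Among the mutant mice, the neighbours *Btg2* and *Jun*, *Ier2* and *Junb*, *Junb* and *Nr4a1*, and *Egr2* and *Fosb* overlapped. Summed over the 10 genes, the normalized CPM was 247, 285 and 303 in Wt and 299, 289 and 327 in mutant mice, and these totals overlapped.

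Within a genotype the genes did not rank the mice alike. *Junb*, *Ier2* and *Btg2* were lowest in mouse 1 and highest in mouse 3 of both genotypes, as were 16.1% of all genes tested, and *Egr2* was lowest in mouse 1 of both. *Fos* and *Jun* were highest in mouse 1 of both genotypes. The T and B cell marker sums were also lowest in mouse 1 and highest in mouse 3 of both genotypes, with 0 of these 16 markers past the FDR by limma, 0 at an unadjusted p under 0.05, and 0 by edgeR's quasi-likelihood test or DESeq2. The part of lymphocytes in the levels of *Junb*, *Ier2*, *Egr2* and *Btg2* was not tested. Without mutant mouse 1, 2 of the 10 genes passed, *Fosb* (fold change 1.12, adjusted p = 0.0318, limma) and *Egr1* (0.97, adjusted p = 0.0161, limma), and *Fos* was at 0.73 (adjusted p = 0.0559, limma).

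**Figure D3:**
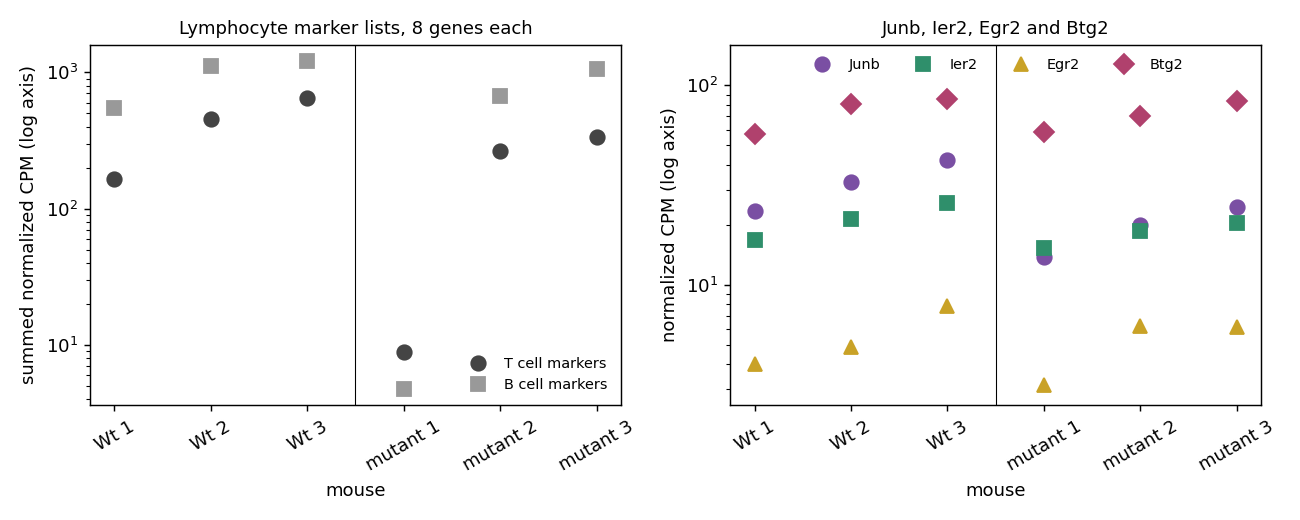
Left, summed normalized CPM (log axis) of 8 T cell and 8 B cell markers in each mouse, and right, normalized CPM (log axis) of *Junb*, *Ier2*, *Egr2* and *Btg2* in the same mice. In both panels mouse 1 is the lowest of its genotype, and the lymphocyte sums of mutant mouse 1, 8.80 and 4.77, are far below those of the other 5 mice.

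Levels of dimer partners, and of *Egr1* and *Egr2*, were then set side by side within a mouse. The ratios were chosen after the values were seen and are given without a test. The ratio of *Fos* to *Jun* per kilobase was 0.0941, 0.106 and 0.0838 in Wt against 0.209, 0.187 and 0.166 in mutant mice. The ratio of *Fos* to *Junb* was 0.229, 0.157 and 0.101 in Wt and 0.856, 0.443 and 0.332 in mutant mice. For *Egr1* to *Egr2* it was 5.44, 6.20 and 3.59 in Wt and 20.5, 8.06 and 8.83 in mutant mice. In each of these 3 ratios every mutant mouse lay above every Wt mouse, and such ratios do not depend on how the libraries were scaled.

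A list of 76 other early response genes was examined, chosen with earlier results of these data known, of which 73 were tested and *Fosl1*, *Egr4* and *Il6* were too low. By limma 11 of the 73 (15.1%) passed the FDR, 7 higher and 4 lower in mutant mice, beside the 8.11% of all genes. Their median fold change was -0.19, with 28 above and 45 below 0, beside 7332 above and 9536 below over all genes tested. Without Wt mouse 2 or Wt mouse 3, 3 of the 73 passed in each case, and without mutant mouse 2 and mutant mouse 3, 6 and 5 passed. All 4 lower calls were lost in these 4 fits, and 2 lower calls were left with the GC correction. Of the 9 tested relatives in the AP-1 family, 1 rose and 2 fell. Among 15 EGR, NR4A and KLF factors 1 fell, among 17 feedback phosphatases and inhibitors 2 rose, and among 14 genes of mRNA decay and growth arrest 1 rose. Of 18 further early genes 3 rose and 1 fell.

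*Fosl2*, which encodes the FOS relative FRA-2, was at 49.8, 46.0 and 46.4 in Wt and at 85.6, 69.8 and 62.6 in mutant mice. It was higher in every mutant mouse (fold change 0.60, adjusted p = 0.0363, limma), and passed in 2 of the 6 fits with a mouse left out. *Jund*, the JUN subunit that is present in resting cells, was at 79.3, 105.6 and 112.8 in Wt and at 53.9, 59.8 and 65.1 in mutant mice. It was lower in every mutant mouse (fold change -0.72, adjusted p = 0.0379, limma), and shares 877 exonic bases with *Gm11175* on the opposite strand, whose mean was 7.71. *Jund* passed in 1 of the 6 fits with a mouse left out, and with the GC correction it was at -0.46 (adjusted p = 0.175, limma). *Fosl1*, which was too low to be tested, was at 0.251, 0.0973 and 0.168 in Wt and at 0.996, 0.359 and 0.468 in mutant mice. It shares 1163 exonic bases with *Ccdc85b* on the opposite strand, which had a mean of 19.5, so the source of these few reads is uncertain.

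Summed per kilobase, the FOS genes *Fos*, *Fosb*, *Fosl1* and *Fosl2* were at 7.92, 7.41 and 7.19 in Wt and at 15.5, 12.2 and 11.1 in mutant mice. The JUN genes *Jun*, *Junb* and *Jund* were at 82.8, 98.5 and 108 in Wt and at 62.8, 65.0 and 71.2 in mutant mice. The mutant mice were above the Wt mice in the FOS sum and below them in the JUN sum, with no overlap in either. *Fosl2* made up most of the FOS sum, 64.2% to 66.6% in Wt and 57.0% to 59.0% in mutant mice. *Jund* made up most of the JUN sum, on average 59.5 of 96.5 in Wt and 35.7 of 66.3 in mutant mice. *Jun* was at 22.7 and 22.1 and *Junb*, which did not pass the FDR, at 14.3 and 8.46. The JUN sum thus follows mainly *Jund*, whose call was lost with the GC correction. Without *Fosl1* the FOS sum was 7.79, 7.36 and 7.11 in Wt and 15.03, 12.05 and 10.85 in mutant mice. These sums were formed after the values were seen and were not tested.

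Among feedback genes, *Dusp1*, a phosphatase that switches off the MAP kinases behind early gene induction, was at 37.9, 38.5 and 36.1 in Wt and at 70.5, 55.0 and 57.3 in mutant mice (fold change 0.69, adjusted p = 0.0155, limma). *Errfi1*, an inhibitor of the EGF receptor, was at 36.2, 36.3 and 37.8 in Wt and at 89.1, 78.5 and 70.0 in mutant mice (fold change 1.09, adjusted p = 0.00272, limma). Both were higher in every mutant mouse. *Cdkn1a*, the cell cycle inhibitor p21, was at 21.2, 21.6 and 20.7 in Wt and at 67.7, 56.4 and 52.4 in mutant mice, the largest difference among the 73 tested genes (fold change 1.45, adjusted p = 0.00166, limma). *Cdkn1a* and *Errfi1* too are among the molecules that the study picked from these libraries. With a mouse left out, *Dusp1* passed in 3 of the 6 fits, and *Errfi1* and *Cdkn1a* in all 6.

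*Ccn1* and *Thbs1*, which encode secreted matrix proteins, rose with fold changes of 0.86 (adjusted p = 0.0175, limma) and 0.92 (adjusted p = 0.00577, limma). *Sgk1*, a kinase induced by serum and glucocorticoids, rose by 0.49 (adjusted p = 0.0394, limma). With a mouse left out, *Sgk1* passed in 1, *Ccn1* in 2 and *Thbs1* in 6 of the 6 fits. With the GC correction *Sgk1* was at 0.45 (adjusted p = 0.0618, limma). *Klf10*, a zinc finger factor induced by TGF-beta, fell with -0.50 (adjusted p = 0.029, limma), and *Ier5l* fell with -0.81 (adjusted p = 0.0315, limma), from 5.32, 7.49 and 6.94 in Wt to 3.62, 3.41 and 3.46 in mutant mice. *Klf10* and *Ier5l* each passed in 1 of the 6 fits with a mouse left out, and with the GC correction *Klf10* was at -0.56 (adjusted p = 0.0194, limma) and *Ier5l* at -0.55 (adjusted p = 0.116, limma).

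**Figure D4:**
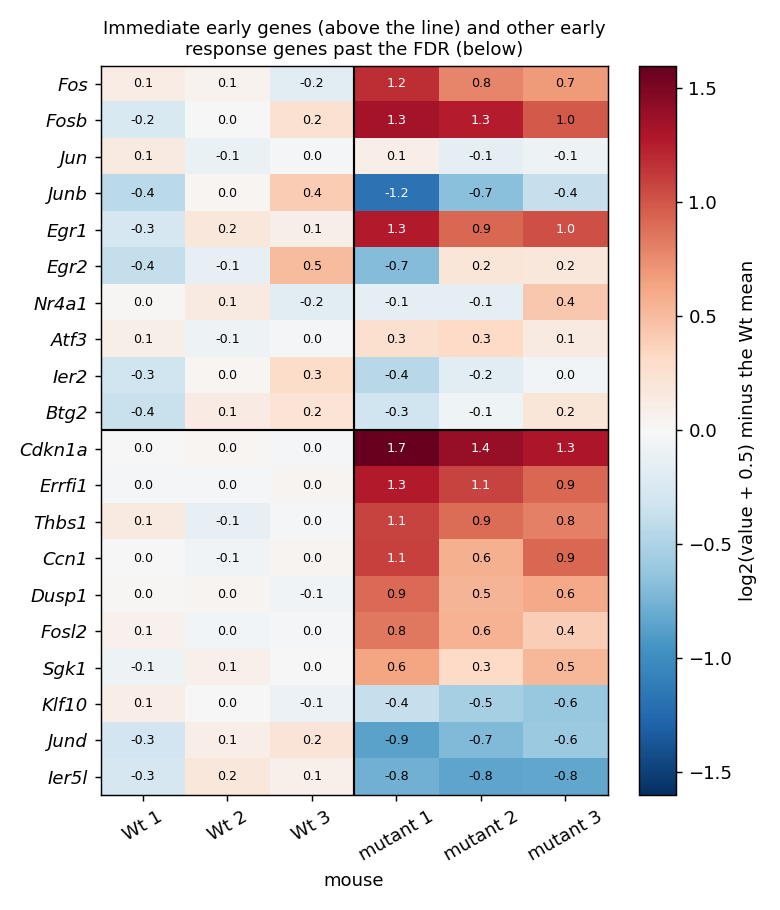
Heat map of log2(value + 0.5) minus the Wt mean of the same gene, in each of the 6 mice, for the 10 immediate early genes (above the line) and 10 other early response genes past the FDR (below the line). *Fos*, *Fosb* and *Egr1* are red in all 3 mutant mice like the 7 genes that rose, *Junb* and the 3 genes shown that fell are blue there, and *Jun*, *Egr2*, *Nr4a1* and *Btg2* show no shared colour.

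Transcripts of the factors and kinases that act on early genes were tested next. By limma 1 of 31 (3.23%) passed, beside 8.11% of all genes. DESeq2 called 4 of the 31, beside 2118 of all 16868 genes. The 1 gene was *Rps6ka4*, a kinase that phosphorylates CREB and histone H3, which was at 36.2, 32.8 and 35.3 in Wt and at 25.9, 25.9 and 24.9 in mutant mice (fold change -0.43, adjusted p = 0.024, limma). With the GC correction, or with any mouse other than mutant mouse 3 left out, 0 of the 31 passed. *Srf*, serum response factor, was at 44.7, 50.4 and 47.0 in Wt and at 29.9, 32.8 and 41.1 in mutant mice, without overlap but not past the FDR (fold change -0.46, adjusted p = 0.0903, limma). *Creb1*, which encodes CREB, was at 48.6, 67.9 and 59.8 in Wt and at 43.0, 51.0 and 56.9 in mutant mice (fold change -0.22, adjusted p = 0.426, limma). Of the 31 genes 8 had fold changes above 0 and 23 below, beside 7332 above and 9536 below over all genes tested. The mRNA level says nothing of the phosphorylation by which these factors are switched on.

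Lists of processes that move with early genes were read beside them. Of 10 heat shock genes, which can respond to stress in dissected tissue, 0 passed the FDR by limma, with 7 fold changes above 0 and 3 below. An unadjusted p under 0.05 was found for 1 of them, beside 4075 of all 16868 genes. The quasi-likelihood test of edgeR and DESeq2 called 0 each. The summed heat shock level was 490 to 516 in Wt and 503 to 555 in mutant mice. Of 14 clock genes, whose mRNA follows the time of day, 9 passed by limma, 3 higher and 6 lower. *Arntl*, the core clock activator BMAL1, was at 10.1, 14.8 and 13.5 in Wt and at 38.7, 42.0 and 35.7 in mutant mice (fold change 1.58, adjusted p = 0.00309, limma). *Per1*, a clock gene that is also an early gene, was at 72.9, 74.3 and 65.3 in Wt and at 75.9, 62.8 and 62.8 in mutant mice (fold change -0.08, adjusted p = 0.663, limma). *Arntl* and other clock genes are also among the molecules that the study picked from these libraries. The time of dissection is not given in the sources used here. The part of handling or of the clock in the differences of *Fos*, *Fosb* and *Egr1* was not tested.

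Among the cell type lists, the mesothelial one held the most calls. Of 8 mesothelial markers 7 were higher in mutant mice by limma, with summed levels of 4.72 to 31.6 in Wt and 37.8 to 75.9 in mutant mice. The remaining marker, *Krt19*, made up 28.5 of the 31.6 in Wt mouse 1, whose epithelial markers were the highest of the 6 mice. Without it the sums, formed after the values were seen, were 3.14, 1.99 and 5.01 in Wt and 67.0, 33.8 and 45.8 in mutant mice. Listed at 0 were *Wt1* and *Calb2* in Wt mouse 1 and *Upk3b*, *Upk1b*, *Bnc1* and *Calb2* in Wt mouse 2. The study had picked *Msln*, *Wt1*, *Bnc1* and *Calb2* of this list, and the muscle gene *Myh1*, from these same libraries. Their calls are not independent evidence. Of 8 skeletal muscle markers 1, *Myh1*, was higher, with sums of 10921 to 23391 in Wt and 17602 to 27440 in mutant mice, and of 8 macrophage markers 1, *C1qa*, was lower, with sums of 1242 to 1499 and 1198 to 1350. By limma 0 passed among 8 fibroblast and progenitor markers (5416 to 6835 in Wt, 5763 to 8281 in mutant mice), 8 endothelial markers (902 to 983, 911 to 1051) and 8 adipocyte markers (15520 to 22114, 13022 to 20383). The same was true of 8 epithelial markers (7.10 to 87.8, 4.91 to 24.7), 6 tested granulocyte markers (53.9 to 58.6, 48.1 to 58.3) and 5 erythroid markers (87.9 to 118, 98.9 to 159). At an unadjusted p under 0.05 there were 3 fibroblast, 5 endothelial, 2 adipocyte, 1 epithelial, 1 granulocyte and 2 erythroid markers. Over all 16868 genes tested, 4075 had such a p. The quasi-likelihood test of edgeR called 0 in these 6 lists, and DESeq2 called 2, 3, 1, 2, 0 and 1. Over all genes edgeR called 1168 and DESeq2 2118. All 8 fibroblast and progenitor markers had fold changes above 0, with a median of 0.23, beside 7332 of all 16868 genes. For 4 of these 8 every mutant mouse was above every Wt mouse, and for 0 below, beside 14.9% and 15.7% of all genes. The part of mesothelial, muscle, fibroblast or other cells in the levels of *Fos*, *Fosb* and *Egr1* was not tested.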

How the data were processed

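RNA-seq of inguinal fat from 3 mutant and 3 Wt mice was analysed, 1 library per mouse, grouped by the genotype in the labels. The authors deposited a normalized signal, which is CPM times 1 factor for each library. The submitters' processing notes name Bowtie2 2.1.0, RSEM 1.2.15, edgeR and mm10, without their roles, and whether counting used strand is not given in the sources used here. Division by the step between values gave whole numbers (tolerance 0.01) for 100% of values, and so 19607423 to 24228381 reads per mouse and a value of 0.126 to 0.157 for 3 reads. This floor covers counting error only. Rounding of estimated counts before scaling would not be visible.

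Genes kept by filterByExpr of edgeR 4.0.16 on those reads (16868) were tested with limma 3.58.1 (R 4.3.3, trend option) on log2(value + 0.5), with Benjamini-Hochberg adjustment and an FDR threshold of 0.05. Each limma p-value sets the genotype difference against the spread between these mice, with each gene's spread drawn toward a trend over all genes. The test was tried on simulated data. The labels name a separate mouse for each library, and all 6 counted as separate samples. Reads of mice of 1 genotype differed by more than sampling noise, which does not show that the mice were independent. The 10 immediate early genes (the members) and every list were chosen with earlier results of these data known. Named genes were the members, the other early genes and regulators past the FDR, *Creb1*, *Srf*, *Arntl*, *Per1*, *Thra*, *Adipoq*, and the 8 genes most like the members' mean. Of the other early genes past the FDR, 1 is counted but not reported here. *Fosl1*, *Junos*, *Prdx2*, *Gm11175*, *Ccdc85b* and the cell type markers named were added after their values were seen.

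Alternatives were TMM, DESeq2's size factors and library size only, edgeR's quasi-likelihood test, the Wald test of DESeq2 1.42.0, limma-voom, pseudocounts of 0.1 and 1, no filter, at least 10 reads in every mouse, an FDR of 0.1, a GC correction in 20 bins, a replicate block, and fits with 1 mouse left out. Coordinates, exonic length and overlaps came from GENCODE M21 on GRCm38, which holds 55480 (99.8%) of the identifiers, and GC content from the longest transcript of each gene, since no genome sequence was used here. Promoters came from RefSeq (GRCm38.p6). Python 3.11.15, pandas 2.3.3, NumPy 2.4.6 and Matplotlib 3.10.9 were used.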

Additional observations from a re-analysis of the deposited data

How the results depend on the processing

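With 3 mice per genotype and 45 to 139 reads on *Fosb*, small changes of low genes could not be seen. Of 190 results for single immediate early genes (the members) under alternatives, 167 kept their direction and side of the threshold, 8 lost and 2 gained a call and 13 changed sign. The losses were *Fos* in each of the 6 and *Fosb* in 2 of the 6 fits without 1 mouse, and in the 13 other settings *Fos*, *Fosb* and *Egr1* passed each time. The sign changes concern uncalled differences near 0. With the GC correction *Jun* was at 0.10 and *Ier2* at 0.044, with or without the block. With 1 mouse left out, *Jun* ran from -0.11 to 0.031 (above 0 without Wt mouse 1 or mutant mouse 2), *Egr2* from -0.29 to 0.19 (above 0 without Wt mouse 3 or mutant mouse 1), *Nr4a1* from -0.14 to 0.15 (below 0 without Wt mouse 3 or mutant mouse 3) and *Btg2* from -0.25 to 0.063 (above 0 without Wt mouse 2, Wt mouse 3 or mutant mouse 1). The cause was not tested.

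Leaving out 1 mouse gave 1 to 2 members called in place of 3 (1 without Wt mouse 2 or mutant mouse 2), 554 to 1005 of all genes in place of 1368, 3 to 9 other early genes in place of 11 and 0 to 1 regulators in place of 1, in fits on fewer mice. Over all genes, an FDR of 0.1 called 2263, DESeq2's Wald test 2118 and at least 10 reads in every mouse 598. Of other early genes 17 were called at an FDR of 0.1 and 17 by DESeq2, and of regulators 4, 4, and 2 with library size only, and 0 with the GC correction. Lower calls over all genes numbered 61 to 265 with 1 mouse left out, beside 440 in all mice.

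With a replicate block for the mouse number 4063 genes were called (1733 higher, 2330 lower), among them all 1368, and with block and GC correction 3248 (1652 higher, 1596 lower). Other early genes then numbered 33 and 27, and regulators 10 and 8. Members called rose to 4 in both, by *Junb* (adjusted p = 0.00613 and 0.0144, limma). Deviations of same-numbered mice correlated at 0.69, 0.06 and 0.56, and 4 of 6 libraries correlated best with their own number. The labels name no pairing, and whether same-numbered mice shared anything beyond the number is not given in the sources used here.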

Other observations

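The genes whose log2(value + 0.5) over the 6 mice was most like the mean of the 10 immediate early genes, among 11699 genes with a mean value of at least 5, were *Eme2* (Pearson r of 0.993), *Sesn1* (0.984), *Nifk* (0.983), *Pum3* (0.981), *BC002059* (0.978), *Rpl35a* (0.976), *Gm45552* (0.976) and *Snrpd3* (0.975). *Sesn1* encodes a stress-responsive sestrin and is a target of p53, *Nifk* and *Pum3* encode nucleolar proteins, *Rpl35a* a ribosomal protein and *Snrpd3* a core protein of the splicing machinery. With 6 points that share 2 genotypes, such a ranking over many genes is a description and carries no p. The 10 genes did not share 1 pattern over the mice. *Fos* correlated with *Egr1* at 0.91 but with *Junb* at -0.92, and *Jun* with *Btg2* at -0.77. Likeness to the mean is thus not likeness to each of the 10 genes.

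The mean log2(value + 0.5) of the 10 genes was 3.86, 4.05 and 4.16 in Wt against 4.16, 4.25 and 4.34 in mutant mice, with 1 Wt mouse at the level of the lowest mutant mouse. The ratio of *Egr1* to *Jun* per kilobase was 0.258, 0.422 and 0.375 in Wt and 0.772, 0.721 and 0.750 in mutant mice. The ratio of the FOS sum to the JUN sum was 0.0957, 0.0752 and 0.0664 in Wt and 0.247, 0.188 and 0.156 in mutant mice. These quantities were formed after the values were seen and were not tested.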
